A study of Macaca fascicularis with 12 samples.

Results

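Genes known as markers of the thalamus were followed across tissue pieces taken from the injected brain of cynomolgus macaques (Macaca fascicularis). The set holds 9 genes, TCF7L2, SHOX2, LHX9, RORA, NTNG1, NRN1, RGS16, PLCB4 and PRKCD, which are 9 of the 14132 single gene symbols of the array annotation. They are measured by 24 of 52766 probe sets, a probe set being the group of short probes that reads a transcript. All 9 genes had at least 1 probe set above the intensity filter, and 20 of the 24 probe sets passed it. The set was drawn up with earlier results of the same arrays known. It was chosen by regional knowledge of the genes together with measured values, since TCF7L2, SHOX2 and NTNG1 had been selected on their difference between BV and mock tissue. Levels by array and differences between BV and mock tissue are therefore descriptions. Where a fit across all probe sets is reported, its calls of these 9 genes are not independent evidence.

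Each of 3 adult male macaques received 4 injections into the left striatum of BV-HSVtk, a baculovirus vector purified by membrane chromatography and high-speed centrifugation and named for herpes simplex virus thymidine kinase. Each injection held 1e8 particles in 10 µL. The right hemisphere received a mock preparation made from virus-free culture medium of the insect cell line Sf9 taken through the same purification. Tissue pieces near the sites were collected 2 days later, 2 pieces per hemisphere and 1 array per piece, which gives 6 BV and 6 mock arrays. Since the virus was always on the left, the effects of treatment and of side cannot be told apart. Replicates 1, 3 and 5 are piece 1 of animals 1, 2 and 3, and replicates 2, 4 and 6 are their piece 2. The labels give no position for a piece beyond this, so whether any piece held thalamus cannot be read from them.

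The striatum and the thalamus lie close together in the primate brain, separated by the fibres of the internal capsule. The thalamus relays sensory and motor signals to the cortex through excitatory neurons, whereas the striatum consists mainly of inhibitory medium spiny projection neurons. Thalamic neurons keep, into adult life, several transcription factors of the developing diencephalon that striatal neurons lack. In bulk tissue, fewer cells of a type and less RNA per cell cannot be told apart.

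Deposited signals of the piece 1 arrays had medians between 50.2 and 62.8, and those of the piece 2 arrays between 25.4 and 32.7. Piece number therefore goes with a technical set of arrays, and the arrays were quantile normalised together. The ratio of 3' to 5' actin signal, a sign of RNA quality, was 2.40 on mock replicate 6 and between 1.10 and 1.4 on the other 11 arrays. Normalised signals below have no absolute unit and are compared only within a probe set. Log2 values were taken after adding a pseudocount of 3.49, so folds of dim genes are understated. Each gene is represented by its brightest probe set unless stated otherwise.

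TCF7L2 is a high-mobility-group factor that carries Wnt signals to target genes, marks thalamic and habenular neurons in mouse, and is also made by maturing oligodendrocytes. Its normalised signals in animals 1, 2 and 3 were 3373, 3140.0 and 1419 in BV piece 1 and 2639, 1226 and 425 in BV piece 2, against 3493, 2916 and 335 in mock piece 1 and 761, 422 and 530.5 in mock piece 2. Both piece 1 arrays of animals 1 and 2 were high on either side of the brain, BV replicate 2 joined them, and BV and mock tissue overlapped over nearly the whole range. The highest and lowest arrays were 10.3-fold apart. All 6 of its probe sets passed the filter and followed each other closely, with Pearson r between 0.96 and 0.99 over the 12 arrays.

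SHOX2, a homeobox factor of thalamic projection neurons in mouse, had the widest spread of the brightest probe sets, 85.4-fold between the extreme arrays and 45.9-fold without mock replicate 6, the array with the actin ratio of 2.40. That array was the lowest in 5 of the 9 genes, SHOX2, NTNG1, NRN1, RORA and RGS16, and the part of RNA quality in those values was not tested. Its signals in animals 1, 2 and 3 were 978, 668 and 141 in BV piece 1 and 1002, 151 and 18.4 in BV piece 2, against 798, 555 and 19.5 in mock piece 1 and 81.1, 19.8 and 8.28 in mock piece 2. The same 5 arrays were high as for TCF7L2, and mock replicates 4, 5 and 6 and BV replicate 6 were dim. Its 3 probe sets had r between 0.97 and 0.99.

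LHX9 is a LIM-homeobox factor of the developing thalamus. Signals were 324, 169.8 and 51.8 in BV piece 1 and 198, 25.8 and 19.4 in BV piece 2, against 199.5, 178 and 16.6 in mock piece 1 and 23.3, 12.9 and 15.5 in mock piece 2. Again the piece 1 arrays of animals 1 and 2 and BV replicate 2 lay above all others. Its other 3 probe sets fell below the filter, with r between 0.67 and 0.95 among the 4. RORA, the nuclear receptor ROR alpha, which is found in sensory thalamus and in cerebellar Purkinje cells, moved less. It had 213, 280.2 and 108 in BV piece 1 and 331, 66.5 and 98.1 in BV piece 2, against 292, 371 and 67.8 in mock piece 1 and 125, 76.9 and 40.6 in mock piece 2. Its extreme arrays were 8.50-fold apart, and 5.36-fold without mock replicate 6. BV replicate 4 was among its lowest arrays, and its 2 probe sets had r = 0.97.

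Both genes for membrane-anchored surface proteins followed the same arrays. NTNG1 encodes netrin-G1, a protein held on axons by a lipid anchor and made by thalamocortical neurons in mouse. It had 1102, 914 and 226 in BV piece 1 and 1136, 229 and 40.04 in BV piece 2, against 1139, 892 and 44.8 in mock piece 1 and 88.8, 45.9 and 25.9 in mock piece 2. Its second probe set was below the filter and followed the first only in part (r = 0.47). NRN1 encodes neuritin, an anchored protein induced by neuronal activity and found in cortex and hippocampus as well as thalamus. Its signals were 1740.2, 1834 and 388 in BV piece 1 and 1229, 318 and 37.6 in BV piece 2, against 1475, 1598 and 46.9 in mock piece 1 and 111, 51.7 and 22.2 in mock piece 2. For NRN1 the extreme arrays were 71.5-fold apart, and 44.7-fold without mock replicate 6. For NTNG1 they were 38.9-fold apart, and 26.2-fold without it.

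The 3 signalling genes did not behave alike. RGS16 speeds the shut-off of G proteins and marks thalamic neurons in mouse. It had 4149.7, 4115 and 1801 in BV piece 1 and 3955, 2306 and 495 in BV piece 2, against 4223, 4277 and 789 in mock piece 1 and 671, 1129 and 57.2 in mock piece 2. It shared the 5 high arrays of the genes above, and mock replicate 6 stood far below the rest. Its extreme arrays were 70.5-fold apart, and 8.59-fold without mock replicate 6.

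PLCB4, a phospholipase C that acts downstream of metabotropic glutamate receptors and is strong in mouse thalamus and cerebellum, varied little. Signals were 205, 263 and 455 in BV piece 1 and 402, 331 and 454 in BV piece 2, against 264, 274 and 319 in mock piece 1 and 389, 327 and 505 in mock piece 2. Its 4 lowest arrays, BV replicates 1 and 3 and mock replicates 1 and 3, were all among the 5 highest for TCF7L2, and mock replicate 6 was the highest. PRKCD, protein kinase C delta, a marker of sensory thalamic relay neurons in mouse, ran against the set. It had 190.5, 273 and 313 in BV piece 1 and 118, 340.4 and 254 in BV piece 2, against 219, 203 and 457 in mock piece 1 and 316, 369 and 417 in mock piece 2. Its lowest arrays, BV replicates 2 and 1 and mock replicates 3 and 1, were all among the 5 highest for TCF7L2. All 3 PRKCD probe sets passed the filter and had r between 0.59 and 0.89 with each other. A dimmer one varied far more than the brightest, with extreme arrays 14.7-fold apart against 3.78-fold.

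**Figure D1:**
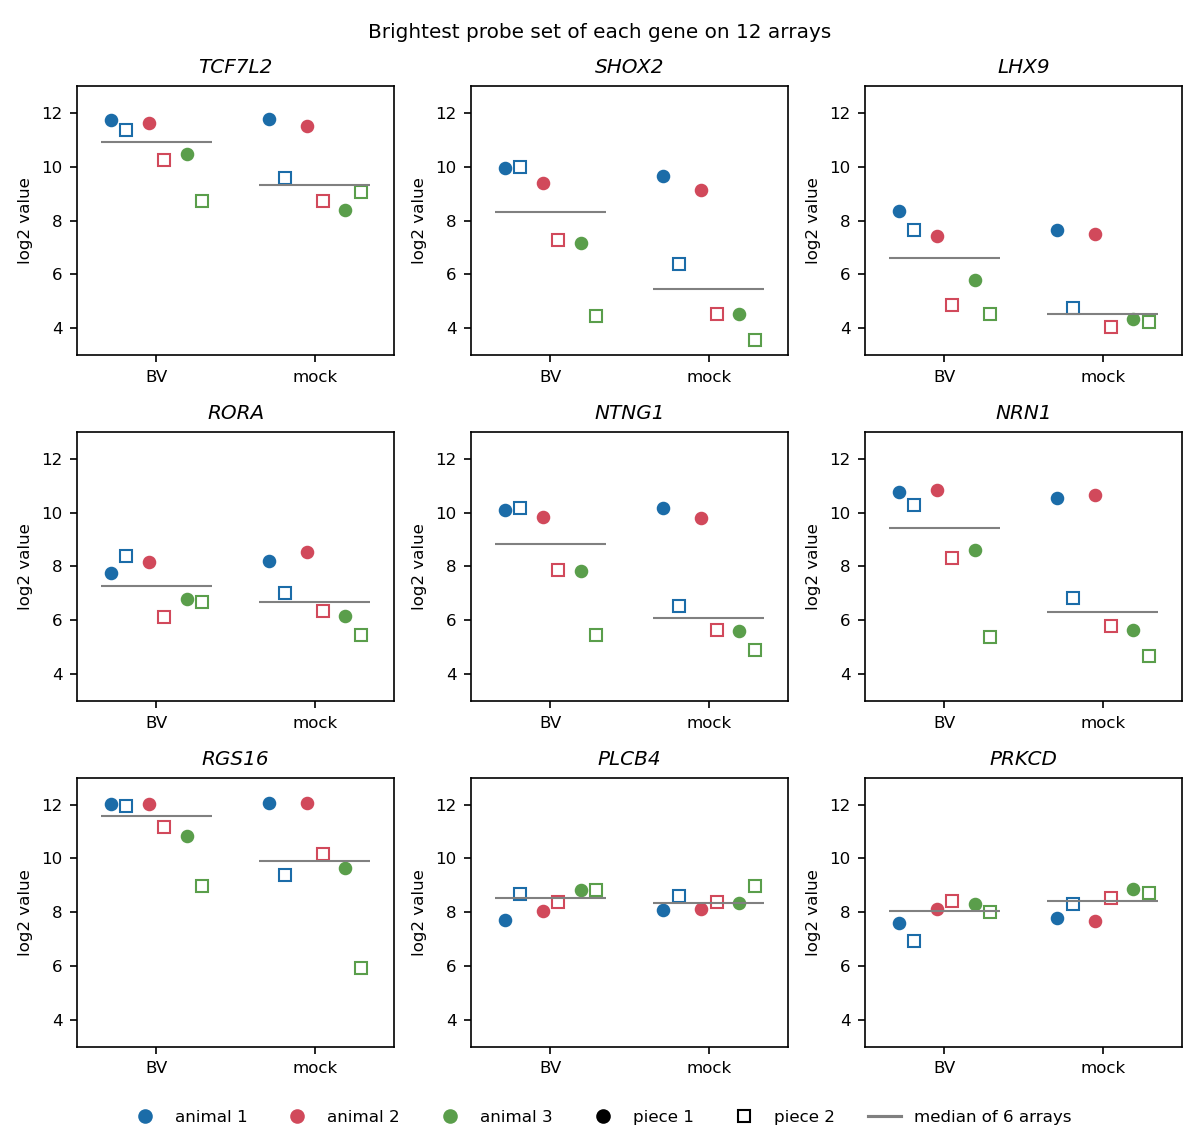
Log2 value of the brightest probe set of each gene (vertical axis) on the 6 BV and 6 mock arrays (horizontal axis), coloured by animal, with filled circles for piece 1, open squares for piece 2 and a grey line at the median of each group. In 7 genes the filled circles of animals 1 and 2 in both groups and the open square of animal 1 in BV lie on top, while PLCB4 and PRKCD stay within 1.28 and 1.92 log2 units.

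The 12 arrays were ordered alike by 7 of the 9 genes. In TCF7L2, SHOX2, LHX9, RORA, NTNG1, NRN1 and RGS16 the 5 highest arrays were BV replicates 1, 2 and 3 and mock replicates 1 and 3. As ratios of signals without the pseudocount, their lowest array exceeded the sixth by 1.71-fold in RORA, 1.72-fold in RGS16 and 1.86-fold in TCF7L2, and by 3.16- to 3.90-fold in NRN1, LHX9, SHOX2 and NTNG1. In all of the 7 except RORA the 5 lowest arrays were BV replicate 6 and mock replicates 2, 4, 5 and 6, which left BV replicates 4 and 5 between. These 7 were singled out after their values were seen.

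Spread over the 12 arrays was wide for the same genes. The standard deviation of the log2 value was 2.44 for SHOX2, 2.41 for NRN1, 2.13 for NTNG1, 1.85 for RGS16, 1.65 for LHX9, 1.32 for TCF7L2 and 1.04 for RORA, against a median of 0.37 over all 31660 tested probe sets. These values lay between the 97.0th and the 99.96th percentile. PRKCD had 0.54 and PLCB4 0.39, at the 78.6th and 53.7th percentiles.

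Taken as a regional marker set, the 9 genes had a median pairwise r of 0.83 over the 12 arrays, with 19 of 36 pairs above 0.8 and 14 below 0. Arrays of an animal share that animal, and the high and low arrays form groups, so the correlations are descriptions and carry no p. SHOX2 with NTNG1 had the highest r, 0.99, and RORA with PRKCD the lowest, -0.84. Without PRKCD and PLCB4 the 21 pairs had a median of 0.90 and a range from 0.78 to 0.99. Against the mean of the other members, r was 0.995 for NTNG1, 0.994 for NRN1, 0.989 for SHOX2, 0.964 for TCF7L2, 0.944 for LHX9, 0.894 for RORA and 0.858 for RGS16, and -0.787 for PRKCD and -0.674 for PLCB4. Among all 11143 ranked genes, the 9 included, 150 had r above 0.9 with the 9-gene mean, so such an r is not particular to these genes. PRKCD and PLCB4 did not share the order of the other 7, and since no piece is known to hold thalamus, the label of the set itself could not be checked against tissue.

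**Figure D2:**
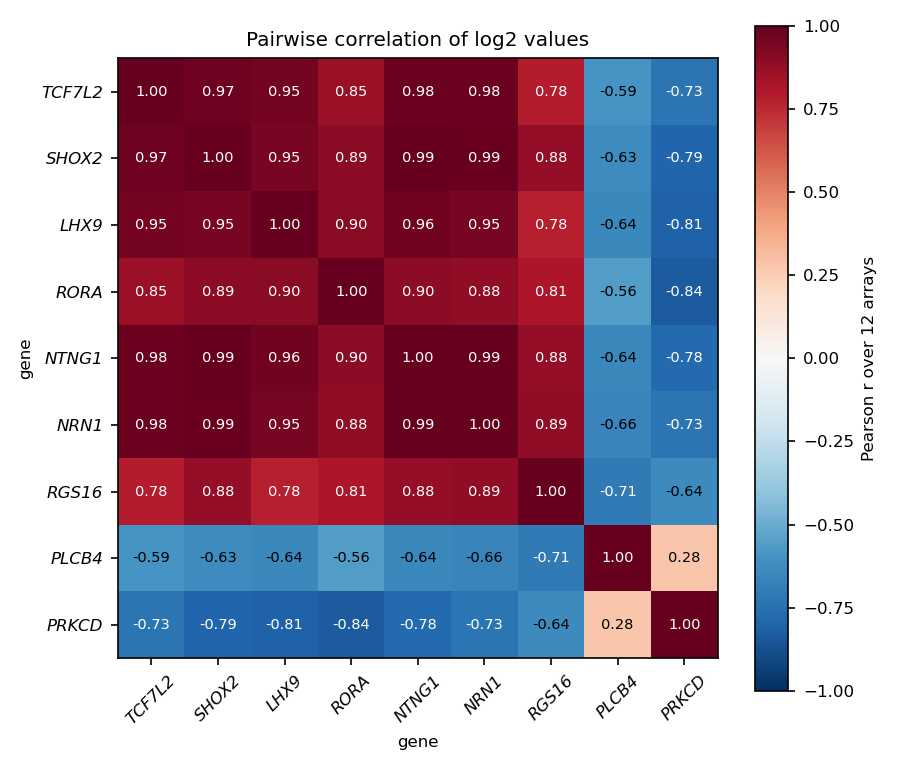
Pearson r of log2 values over 12 arrays for each pair of the 9 genes (both axes), red for positive and blue for negative. The 7 genes at the top left have r from 0.78 to 0.99 with each other, and PLCB4 and PRKCD have negative r with all 7 and 0.28 with each other.

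Pieces of the same hemisphere often differed more than the hemispheres did. In the mock hemisphere of animal 2 piece 1 exceeded piece 2 by 29.0-fold in NRN1, 24.0-fold in SHOX2, 18.1-fold in NTNG1, 11.05-fold in LHX9 and 6.86-fold in TCF7L2. The largest gap of RGS16, 13.1-fold, was in the mock hemisphere of animal 3, which holds mock replicate 6, and 6.27-fold in the other hemispheres. Over the 9 genes, the median absolute log2 difference between pieces was 0.50, 1.98 and 1.73 in the BV hemispheres of animals 1, 2 and 3, against 2.65, 2.78 and 0.69 in their mock hemispheres. For all tested probe sets the same median lay between 0.23 and 0.40. The BV hemisphere of animal 1, with both pieces high, and the mock hemisphere of animal 3, with both pieces among the 5 lowest arrays for the 7 genes, had the smallest median gaps.

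Piece 1 minus piece 2 was fitted over 3 animals, with animal as a block in limma. Values by piece were known when the set was drawn up, so these differences too are descriptions. NRN1 had a log2 difference of 2.63 ± 0.34, SHOX2 2.27 ± 0.35, NTNG1 2.14 ± 0.32, RGS16 1.84 ± 0.30 and LHX9 1.83 ± 0.42 (SE, n = 3 animals). TCF7L2 had 1.29 ± 0.29, RORA 0.94 ± 0.37 and PLCB4 -0.46 ± 0.18. For PRKCD the probe sets differed, with -0.10 ± 0.21 for the brightest and -1.88 ± 0.50 and -0.63 ± 0.21 for the dimmer ones. None of the 9 genes passed at an adjusted p of 0.05 in this limma fit, where 0 of 31660 probe sets (0%) did and 5883 had an unadjusted p under 0.05. With the 6 hemispheres as blocks on single arrays, which takes the hemispheres of an animal as independent, SHOX2, NTNG1, LHX9, RGS16 and NRN1 were called higher in piece 1, with limma adjusted p from 0.0388 to 0.0462. That fit called 1657 probe sets, 5.23% of those tested, and 2.54% as higher in piece 1. Nothing is read from the members' calls there. Piece number and array set cannot be told apart, and without normalisation across both sets 19894 probe sets were called.

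BV and mock tissue overlapped for all 9 genes, while 0.237% of tested probe sets had all 6 BV arrays above the mock arrays and 0.136% all 6 below. Paired by replicate number, which matches animal and piece, SHOX2 and NRN1 were higher in BV in 6 of 6 pairs, NTNG1 and LHX9 in 5, TCF7L2 and RGS16 in 4, RORA and PLCB4 in 3 and PRKCD in 1. The size varied widely. For NTNG1 the pair differences, in log2 units, were -0.05, 3.63, 0.03, 2.23, 2.25 and 0.57 for replicates 1 to 6, and for NRN1 0.24, 3.43, 0.20, 2.54, 2.96 and 0.68. The piece 1 pairs of animals 1 and 2, where both sides were high, were near 0, and the pairs of replicates 2, 4 and 5 were large. Over the 9 genes the median difference was -0.05, 2.55, 0.03, 1.03, 1.46 and 0.57 in pairs 1 to 6, against medians of all tested probe sets between -0.08 and 0.01.

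Averaging the pieces hid much of this. TCF7L2 had BV minus mock values of 0.87, 0.82 and 0.88 in animals 1, 2 and 3, with a mean of 0.86 ± 0.03 (SD, n = 3 animals), although its 6 pairs ran from -0.32 to 2.07 with an SD of 1.06. The small SD of the animal means belongs to the brightest of its 6 probe sets, the other 5 having SDs between 0.21 and 0.64. SHOX2 averaged 1.73 ± 0.22, NRN1 1.67 ± 0.26 and NTNG1 1.44 ± 0.33 (SD, n = 3 animals), with SDs over the 6 pairs of 1.42, 1.46 and 1.48. RGS16 averaged 1.29 ± 0.81, LHX9 1.02 ± 0.72 and RORA 0.36 ± 0.62. PRKCD had -0.42 ± 0.50 and PLCB4 0.00 ± 0.17. The dimmer probe sets of PRKCD had -0.24 ± 0.80 and 0.08 ± 0.34 and were higher in BV in 4 and 2 of the 6 pairs. The second NTNG1 probe set, below the filter, had -0.37 ± 1.01 and was higher in BV in 2 of the 6 pairs. The median of the 9 was 1.02, against -0.02 over all tested probe sets.

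**Figure D3:**
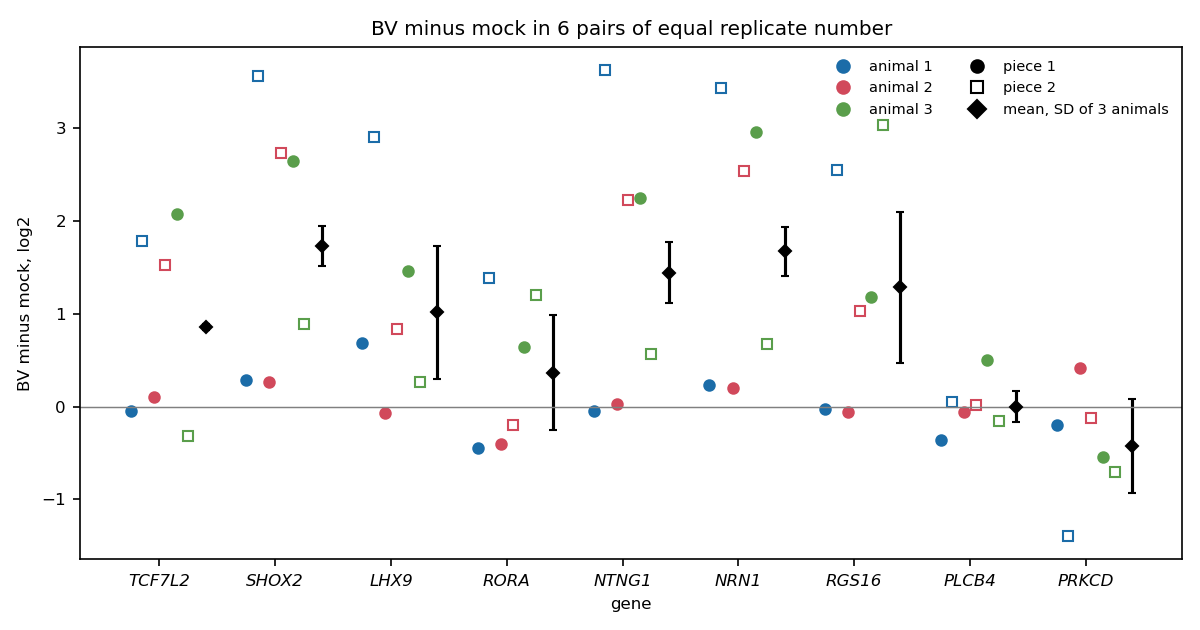
BV minus mock in log2 units (vertical axis) for each of the 9 genes (horizontal axis), with 1 point per pair of equal replicate number coloured by animal, filled for piece 1 and open for piece 2, and a diamond with bars for the mean and SD of the 3 animals' averages. The 6 points of TCF7L2 spread from -0.32 to 2.07, while its diamond at 0.86 has bars of 0.03.

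In the limma fit across all probe sets, on hemisphere means with animal as a block, 0 of the 9 genes were called (adjusted p under 0.05) and 0.0284% of tested probe sets were. Because the genes were chosen with this contrast known, nothing is read from that count. Without animal 2 the same limma fit called 6 of the 9 genes (TCF7L2, SHOX2, NTNG1, LHX9, RGS16 and NRN1), and it called 5.83% of all tested probe sets. The rule that chose the genes used this contrast there too, and that fit rested on fewer animals. Further, the difference itself moved with single mock arrays. Without mock replicate 4 the TCF7L2 difference was 0.39, and without mock replicate 3 it was 1.32. A limma F test of whether the BV minus mock difference varied between animals, with pieces as replicates, called 0 of the 9 genes and 0 of 31660 probe sets (0%), with 735 at an unadjusted p under 0.05. That test had no term for piece, so differences between pieces entered its residual. It had little power for genes that differ widely between pieces, and nothing is read from its calls of the 9 genes.

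Striatal projection neuron genes ran opposite to the thalamic ones. Their list, drawn up with earlier results of these arrays known, held 16 genes, of which 9 were tested. The mean centred log2 value of the 9 thalamic genes ran from -1.39 to 1.38 in BV arrays and from -2.0 to 1.37 in mock arrays. That of the striatal list ran from -1.99 to 1.08 in BV arrays and from -1.64 to 2.06 in mock arrays. Over the 12 arrays the list means had r = -0.90. The 5 arrays high in thalamic genes, together with BV replicate 5, were those low in striatal ones. BV replicate 5 was in the middle of the thalamic range (0.12), as was BV replicate 4 (-0.09), yet their striatal means were -1.06 and 1.08. Relative to the 7 thalamic genes, 8 of the 9 striatal genes had r below -0.8. They include PDE10A, a phosphodiesterase of medium spiny neurons, with r = -0.89, RGS9, a regulator of dopamine signalling, with -0.91, GPR6, an orphan receptor of indirect-pathway neurons, with -0.91, and DRD2, the dopamine D2 receptor, with -0.88. ARPP21, a cyclic AMP-regulated phosphoprotein, had r = -0.01. The list's BV minus mock median was -0.87 with 0 of 9 genes higher and 0 called, the most extreme being DRD2 at -1.17 ± 0.55 (SE; limma adjusted p = 0.569), GPR6 at -1.16 ± 0.64 (0.573), RGS9 at -1.15 ± 0.69 (0.583) and PDE10A at -0.97 ± 0.63 (0.591).

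**Figure D4:**
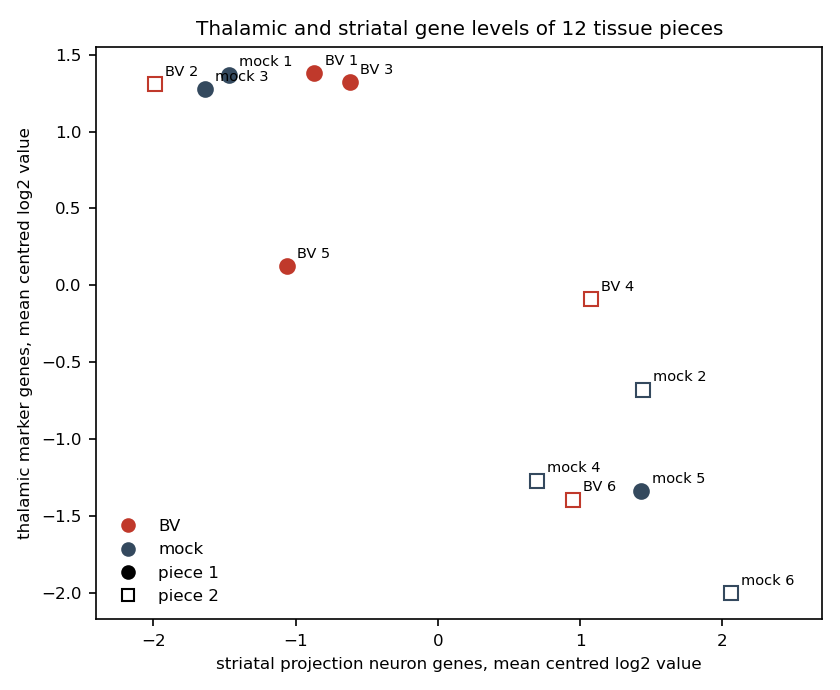
Mean centred log2 value of the 9 thalamic marker genes (vertical axis) against that of 9 striatal projection neuron genes (horizontal axis), 1 labelled point per array, red for BV and dark blue for mock, filled for piece 1 and open for piece 2. BV 1, BV 2, BV 3, mock 1 and mock 3 sit at the top left and mock 6 at the bottom right, at 2.06 for striatal and -2.0 for thalamic genes.

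PRKCD moved with the striatal genes. Its 3 probe sets had r of 0.82, 0.84 and 0.71 with the striatal mean, from the brightest to the dimmest, while PLCB4 had 0.43. The brightest probe sets of the other 7 genes had r between -0.82 and -0.89.

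Other genes known from the thalamus were sought from a second list of 18, of which 7 had a probe set of their own symbol and 5 were tested. That list too was drawn up with earlier results of these arrays known, so its values are descriptions and not independent evidence. PTPN3, a tyrosine phosphatase, ran from 43.8 through a median of 596 to 1055 in BV arrays and from 22.4 through 62.8 to 1201 in mock arrays, and had r = 0.99 with the 9-gene mean. AMOTL1, a junction-associated angiomotin relative, and GATA3, a zinc-finger factor of inhibitory diencephalic neurons, had r of 0.97 and 0.97. KITLG, the ligand of the receptor KIT, had 0.72. TNNT1, a troponin subunit seen in mouse thalamus, had -0.18. BV minus mock was 1.46 ± 0.20 (SE; limma adjusted p = 0.245) for PTPN3, 0.76 ± 0.19 (0.499) for GATA3, 0.65 ± 0.30 (0.569) for KITLG, 0.45 ± 0.16 (0.564) for AMOTL1 and -0.34 ± 0.24 (0.602) for TNNT1. In all, 4 of 5 had higher values, 0 were called in either direction, and their median was 0.65.

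The 10 genes most like the 9-gene mean over the 12 arrays, among 11134 others, had r from 0.97 to 0.99. They were NHLH2, a neuronal basic helix-loop-helix factor, TCERG1L, PTPN3, RSPO3, an enhancer of Wnt signalling, SNCB, which is beta-synuclein, TMEM163, a zinc transporter of synaptic vesicles, LOC696885, RAB4A, a GTPase of recycling endosomes, GDF6, a bone morphogenetic protein, and MOCS1, an enzyme of molybdenum cofactor synthesis. MOCS1 had signals of 279 at the lowest, 1427 at the median and 2793 at the highest in BV arrays, and 147, 436 and 2714 in mock arrays. NHLH2 had 14.3, 129.9 and 236 in BV arrays, and 10.9, 19.4 and 227 in mock arrays. The BV and mock ranges overlapped for each of the 10, and their limma adjusted p for BV minus mock ran from 0.245 to 0.564. For TCF7L2 alone the nearest 5 of 11142 genes were RIMS3, a protein of the presynaptic active zone, PTPN3, LOC696885, LOC699134 and MOCS1, with r between 0.98 and 0.99. In that order NTNG1 ranked 12, NRN1 13, SHOX2 19, LHX9 38, RORA 268 and RGS16 485, while PLCB4 ranked 9967 and PRKCD 10699.

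At the other end were DLG1, a synaptic scaffold, DIAPH2, RAB34, HACD2, RAB40B, KLHL2, TAC3, the neurokinin B precursor, DLGAP2, another postsynaptic scaffold protein, SERPINA5 and GALNT1, with r from -0.98 to -0.94. TAC3 had 6.14 at the lowest, 26.9 at the median and 97.4 at the highest in BV arrays, and 7.68, 78.1 and 341 in mock arrays. GALNT1, an enzyme that starts O-linked sugar chains, had 3.20, 27.8 and 222 in BV arrays, and 2.16, 216 and 697 in mock arrays. The BV and mock ranges of both genes overlapped.

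Markers of other cells were set beside the 9 genes. General neuronal genes moved with them in part, the mean of 4 tested of 8 listed having r = 0.91 with the 9-gene mean. Singly, STMN2 had r = 0.93, SYT1 0.89, GAP43 0.73 and ENO2 0.05. The mean of the neuronal list ran from -0.39 to 0.50 in BV arrays and from -0.42 to 0.39 in mock arrays. Its part in the thalamic pattern was not tested. Oligodendrocyte genes (4 of 10 tested) had r = -0.0041 and stayed between -0.37 and 0.20 in BV arrays and between -0.22 and 0.26 in mock arrays. MBP, myelin basic protein, lay between 6025 and 6919.9 in BV arrays and between 6390.3 and 7008 in mock arrays. Astrocyte genes (5 of 7) had r = -0.40 and cortical excitatory genes (5 of 9) -0.75. Within the cortical list NRGN, neurogranin, and LAMP5, a lysosome-associated membrane protein, had r of -0.84 and -0.88 with the 9-gene mean, while CUX2, a homeobox factor of upper cortical layers, had 0.82, RORB, a nuclear receptor, 0.44 and TBR1, a T-box factor, 0.13. Ependymal and choroid plexus genes (4 of 7) had r = 0.37. They reached 1.64 on BV replicate 1, where FOLR1 had its highest signal, 839, and lay between -0.41 and 0.12 on the other arrays. The lowest normalised signal of any tested marker of these other cell types was 15.1.

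The mean of the interferon-response genes, by contrast, did not overlap between BV and mock arrays. Over 8 tested of 10 listed genes it ran from 0.57 to 1.62 in BV arrays and from -1.42 to -0.75 in mock arrays, and had r = 0.26 with the thalamic mean. ISG15, a ubiquitin-like interferon-induced protein, had 1649, 3755 and 4747 at the lowest, median and highest in BV arrays, and 183, 236 and 542 in mock arrays. Its 6 BV arrays lay above all mock arrays. Of the 8 genes 4 were called higher in BV tissue, against 0.0284% of all tested probe sets. This list was chosen with earlier results of these data known, so its calls are not independent evidence. They were ISG15 at 3.56 ± 0.13 (SE, limma adjusted p = 0.00539) and MX1, an antiviral GTPase, at 3.04 ± 0.19 (limma adjusted p = 0.0256). The others were IFI27 at 2.55 ± 0.16 and IFIT3 at 2.13 ± 0.14 (limma adjusted p = 0.0256 for each). IFIT2, a relative of IFIT3, had 0.0052 (adjusted p = 0.99) and overlapping ranges, from 390.5 to 759 in BV arrays and from 416 to 752 in mock arrays. The thalamic genes had no such separation: in 7 of them mock piece 1 of animals 1 and 2 was among the 5 highest arrays.

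**Figure D5:**
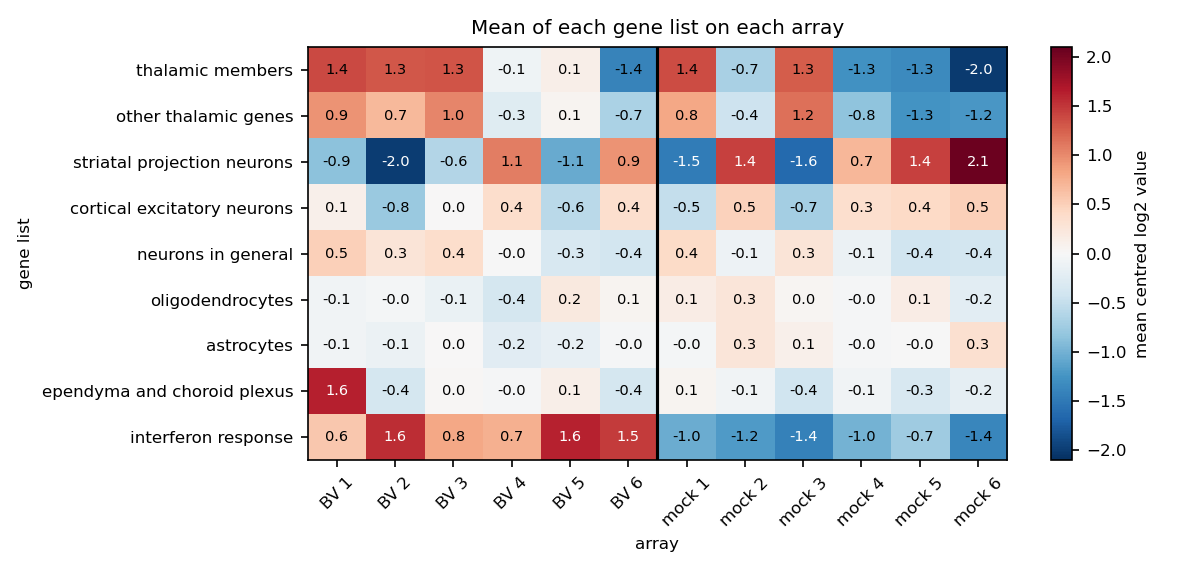
Mean centred log2 value of each gene list (rows) on each array (columns, BV left and mock right of the line), red above and blue below the list's average. The thalamic and striatal rows change colour between the pieces of a hemisphere, except in the BV hemisphere of animal 1 and the mock hemisphere of animal 3. The interferon row is between 0.57 and 1.62 on BV arrays and between -1.42 and -0.75 on mock arrays.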

How the data were processed

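The authors deposited, for every array, a column of probe set intensities on a linear scale. GCOS 1.4.0.036 is the tool listed in the submitters' processing notes. How probes were summarised, scaled or filtered is not given in the sources used here. The mean of deposited signals without the extremes was 99.99 on every piece 2 array and between 141.5 and 189.4 on piece 1 arrays. The deposited values of the piece sets were therefore not on the same scale. RNA was prepared with Trizol, per the labels' protocols. The arrays carry rhesus probes, to which cynomolgus RNA may bind less well, and the platform table assigns 1 symbol to 24956 probe sets, several to 361 and none to 27535. All 9 symbols were found among the Macaca fascicularis genes. Sequences and coordinates are not reported here.

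Because array medians differed, the 12 arrays were quantile normalised in limma 3.58.1 under R 4.3.3, and log2 values were taken with a pseudocount of 3.49, the 10th percentile of all deposited intensities. Control probe sets (99) were left out, and the 31660 probe sets whose mean log2 value reached 4.95, the 40th percentile, entered lmFit and eBayes with a trend, two-sided, with Benjamini-Hochberg adjustment over all of them at 0.05. BV minus mock used hemisphere means with animal as a block, since each animal carries both treatments. Deviations of same-numbered arrays from their group means correlated at r from 0.28 to 0.62. For the hemisphere means, r was 0.62, 0.16 and 0.36 in animals 1, 2 and 3. The pieces of a hemisphere are not independent, so p-values from single arrays measure in part the spread between pieces. The number of arrays limits the precision. The fits were also run on simulated data. The outcome of that run is not given here, so nothing is read from it about the fits of these arrays.

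The members and lists were chosen with earlier results of these data known. Named genes are all members, the other listed genes that were called or otherwise the 4 of largest difference, and the 10 genes of highest and lowest r with the mean of the members, or 5 with TCF7L2. All 5 tested genes of the second thalamic list are named. ARPP21, MBP, FOLR1, IFIT2, the 4 tested neuronal genes and the 5 cortical genes were named after their values were seen. Alternatives covered the pseudocount, normalization, filter, trend, blocks, probe set choice and left-out arrays.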

Additional observations from a re-analysis of the deposited data

How the results depend on the processing

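Against 9 probe sets called for BV minus mock, 1 was called with no normalization and 1 without the eBayes trend, 5 with no intensity filter, 4 with no replicate block, 38 with an animal block and piece term, 85 with duplicateCorrelation by hemisphere, 14 from piece 1 alone and 0 from piece 2 alone (limma adjusted p under 0.05). With the replicate block of 6 pairs 55 were called (0.174%) and 0 of the 9 thalamic genes. Leaving out 1 animal or array gave 0 (without mock replicate 5) to 1845 calls (without animal 2, 5.83%). The thalamic genes called ran from 0 to 6: TCF7L2, SHOX2, NTNG1, LHX9, RGS16 and NRN1 without animal 2, with GATA3 and PTPN3 (0 to 2) of the second thalamic list, 4 without animal 3 (82 calls, 0.259%) and 3 without mock replicate 6 (43 calls, 0.136%). Without animal 2, DRD2, PENK, PDE10A, RGS9, GPR6, ADCY5 and PPP1R1B were also called lower.

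For pieces, 0 calls became 19894 with no normalization, 21201 with quantile normalization within each piece set, 1657 with 6 hemispheres as blocks, and 0 to 9448 (without animal 3) with 1 of the 3 animals left out. The median pairwise r of 0.83 was 0.78 as Spearman rho, 0.77 in BV arrays alone, 0.92 in piece 1, 0.70 in piece 2, 0.53 over the 6 pair differences, and 0.90 without PRKCD and PLCB4, a setting chosen after seeing the data; left-out arrays gave 0.79 to 0.88. The ranges without mock replicate 6 were likewise added after seeing the data. The genes' median BV minus mock of 1.02 was 0.61 with all probe sets averaged and 0.44 (without mock replicate 4) to 1.59 (without mock replicate 3). TCF7L2, SHOX2, NTNG1, LHX9, RGS16 and NRN1 stayed higher in BV tissue and PRKCD lower in 23 of 23 settings. RORA kept its sign in 21 and PLCB4, whose main difference was 0.00, in 14. All settings reuse these arrays and the contrast known when the genes were chosen, so the tallies are descriptions. Most of these settings used the brightest probe set alone. The dimmest PRKCD probe set had a BV minus mock of 0.08, and the second NTNG1 probe set, below the filter, had -0.37. The cause of these shifts was not tested. With 3 animals and 2 residual degrees of freedom, the fit depends on single arrays. The fits with an animal left out had fewer residual degrees of freedom still.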
